A study of Mus musculus with 2 samples.

Results

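The RNA of 9 genes of the Notch pathway was followed through the vessel cells of mouse spinal cord libraries. They were the receptors Notch1, Notch3 and Notch4, the ligands Dll4, Jag1 and Jag2, and the target genes Hey1, Hes1 and Heyl. The members were chosen by gene symbol, and all 9 were found among the 27998 genes of each matrix. The mice were of the C57BL/6J background and carried a tamoxifen-inducible Cre recombinase with yellow fluorescent protein at Cx3cr1 and a floxed Runx1 allele (Cx3cr1-CreERT2-YFP::flxRunx1), and the labels give this strain for both groups. The control group was labelled wild type and received vehicle, and the other group was labelled Runx1 Knock-out and received tamoxifen at 1 mg per day, so genotype and tamoxifen cannot be told apart. Fluorescent cells were sorted from spinal cord digested with collagenase, 4 weeks after the first injection in both groups. Cx3cr1 drives the Cre in microglia and other mononuclear phagocytes, so neither the deletion nor the sort was aimed at vessel cells. Ages and the number of animals per library are not given in the sources used here. There was 1 library per group, hence no replicate check and no test. All intervals are 95% intervals that cover counting error only.

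The wild-type library held 4582 barcodes and 37446978 UMIs (unique molecular identifiers, which count RNA molecules), and the library labelled knock-out held 2604 barcodes and 13075939 UMIs. The libraries shared 9 barcode sequences. Levels are given as CPM, the UMIs of a gene per 1000000 UMIs of the same cells. Runx1, the targeted gene, had 182 CPM (171 to 193) in microglia-like cells labelled knock-out, above 93.0 CPM (88.3 to 97.9) in those of the wild type. The deleted part of Runx1 is not named in the labels, and 3′ tags outside it check nothing. Cells were clustered without any gene of the Notch lists and named by marker genes. The wild-type library gave 1682 endothelial-like, 143 mural-like and 2174 microglia-like cells, and the library labelled knock-out gave 842, 102 and 1355. Most wild-type microglia-like cells fell in cluster 0 and most of those labelled knock-out in cluster 2, which was named from the share of microglia markers counted in it, since none stood among its top 10 genes. Markers fitted the names: endothelial markers were highest in endothelial-like cells, pericyte markers (3624 and 5424 CPM, wild type first here and below) and smooth muscle markers (6463 and 6658) in mural-like cells. The RNA was not pure. The 12 microglia markers summed to 11297 CPM in wild-type endothelial-like cells and to 4235 CPM in those labelled knock-out. Mural-like cells carried endothelial markers at 19066 and 19513 CPM, beside 27047 and 28879 CPM in endothelial-like cells. Barcodes of endothelial or mural sub-clusters that were led by microglia genes were left out of the classes (393 and 136 beside endothelial-like, 37 and 26 beside mural-like cells).

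Notch receptors are membrane proteins that are cut when a Delta or Jagged ligand on a neighbouring cell binds them. The freed intracellular domain enters the nucleus and, with the DNA-binding protein Rbpj, switches on Hes and Hey repressor genes. In vessels, Dll4 with Notch1 and Notch4 acts in endothelium and is tied to arterial fate and sprouting, while Notch3 is the receptor of smooth muscle and pericytes, which Jag1 on endothelium engages.

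Promoter stretches of 3 genes are shown: Dll4 from the ligands, Notch3 as the mural receptor, and Hey2, a mural relative of Hey1 and Heyl. Hey2 is not a member. The member targets Hey1, Hes1 and Heyl had no window, and that of Hey2 does not stand for them. Each stretch is the 250 bases before the gene's start in RefSeq, 5′ to 3′ on the gene's strand, on GRCm38.p6. The starts in GENCODE, which gave the gene positions below, differ for some genes. The windows of Notch1 and Jag2 lie inside the GENCODE gene, and those of Jag1, Notch4 and Hey2 overlap it. The RefSeq table matched 6 of the 9 members, the receptors and the ligands. Capitals mark the motifs TGGGAA (the core that Rbpj binds), CACGTG (an E-box) and CCGCCC (a GC box), searched on both strands. No match overlapped a match of another motif.
Dll4 (chr2:119325534-119325783, forward strand): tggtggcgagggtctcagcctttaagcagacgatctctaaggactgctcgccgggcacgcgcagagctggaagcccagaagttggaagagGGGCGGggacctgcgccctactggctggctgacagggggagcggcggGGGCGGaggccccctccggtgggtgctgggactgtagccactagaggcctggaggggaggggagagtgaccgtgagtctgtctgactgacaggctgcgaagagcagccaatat
Notch3 (chr17:32166891-32167140, reverse strand): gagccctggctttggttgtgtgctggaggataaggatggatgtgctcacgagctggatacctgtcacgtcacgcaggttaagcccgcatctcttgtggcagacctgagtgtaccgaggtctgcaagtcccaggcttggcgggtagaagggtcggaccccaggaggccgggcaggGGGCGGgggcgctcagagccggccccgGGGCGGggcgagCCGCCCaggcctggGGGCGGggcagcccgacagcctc
Hey2 (chr10:30842784-30843033, reverse strand): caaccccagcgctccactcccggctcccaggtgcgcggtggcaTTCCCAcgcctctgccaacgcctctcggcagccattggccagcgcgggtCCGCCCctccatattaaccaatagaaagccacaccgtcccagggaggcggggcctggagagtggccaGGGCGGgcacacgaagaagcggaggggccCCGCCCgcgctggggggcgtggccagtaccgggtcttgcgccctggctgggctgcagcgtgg
The letters TGGGAA were in 0 of the 6 member windows and in 21.6% of all 32851 promoter windows of this length. Hey2 held the motif once, starting 207 bases before the gene's start. CCGCCC was in 4 of the 6 member windows and in 32.7% of all windows, with 4 matches in Notch3 and 2 in Dll4. CACGTG was in 0 of the 6 and in 6.02% of all. These counts describe letters in a window and say nothing of binding.

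**Figure D1:**
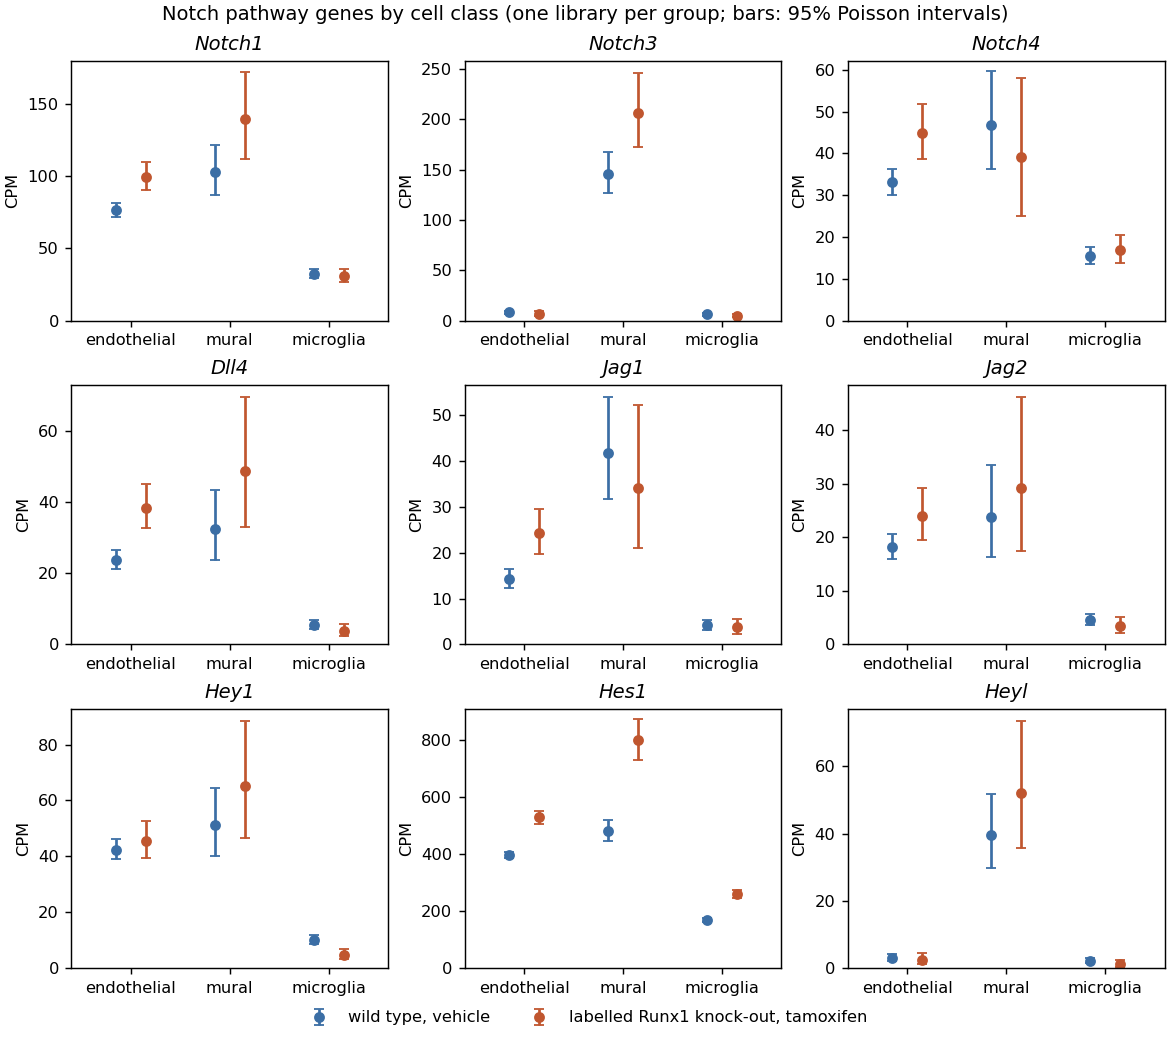
Level of each of the 9 genes (vertical axis, CPM from 0) in endothelial-like, mural-like and microglia-like cells, with 1 point per library and 95% Poisson intervals. Notch3 and Heyl stand clear of the baseline only in mural-like cells, and the other 7 genes are lowest in microglia-like cells in both libraries.

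The receptors divided by vessel cell class, as the plot of levels by class shows. Coordinates are those of GENCODE on GRCm38 and cover the whole gene with its exons and introns. Notch1 (ENSMUSG00000026923, chr2:26457903-26516663, reverse strand) was measured at 76.7 CPM (71.9 to 81.6) in wild-type endothelial-like cells and 99.8 CPM (90.3 to 110.0) in those labelled knock-out. In mural-like cells Notch1 stood at 103 CPM (86.9 to 122) and 139.9 CPM (112 to 173), and in microglia-like cells at 32.5 and 30.8 CPM. The order was mural-like, endothelial-like, microglia-like in both libraries, and the intervals of the first pair of neighbours did not overlap in either library. With each cell thinned to the same depth, though, the wild-type mural-like over endothelial-like difference of Notch1 was -0.50 (-1.48 to 0.33) on the log2 scale, against 0.43 from all UMIs. Notch1, Notch3, Notch4 and Dll4 each overlap an annotated gene on the opposite strand, and the labels do not say whether counting used strand. Notch4 (ENSMUSG00000015468, chr17:34564268-34588503), an endothelial receptor, had 33.0 CPM (30.0 to 36.4) and 44.9 CPM (38.6 to 51.9) in endothelial-like cells and 15.5 and 16.9 CPM in microglia-like cells. Its mural-like levels were 46.9 CPM (36.2 to 59.8) and 39.0 CPM (25.0 to 58.1), so mural-like and endothelial-like intervals overlapped in both libraries.

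Notch3 (ENSMUSG00000038146, chr17:32120820-32166852, reverse strand) had the sharpest division of the receptors. It reached 146 CPM (126 to 167) and 207 CPM (172 to 246) in mural-like cells, against 8.08 and 6.86 CPM in endothelial-like and 6.17 and 4.67 CPM in microglia-like cells. The mural-like over endothelial-like difference was 4.17 (3.82 to 4.53) on the log2 scale in wild type and 4.91 (4.31 to 5.56) in the library labelled knock-out. Its endothelial-like level was 5.55% and 3.32% of its mural-like level, inside the range of 22 pericyte and smooth muscle markers (3.33% to 12.3% and 0.958% to 10.3%). Relative to mural-like cells, endothelial-like cells thus held no more Notch3 than RNA of defining mural genes. Within mural-like cells, the smooth muscle-like sub-class (91 and 53 cells) held 184 CPM (155 to 216) and 291 CPM (232 to 361). A second mural sub-cluster of 52 and 49 cells, led by Kcnj8 and Abcc9, held 93.1 CPM (69.9 to 121) and 133 CPM (96.9 to 179). This sub-cluster stayed unnamed because hemoglobin genes outnumbered pericyte markers among its leading genes. The difference was 0.98 (0.52 to 1.46) and 1.13 (0.58 to 1.69) on the log2 scale, and Notch3 was called higher in the library labelled knock-out but not in the wild type, where 6.20% and 4.48% of all genes were called higher; whether the libraries differed was not tested.

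The ligands were lowest in microglia-like cells. Dll4 (ENSMUSG00000027314, chr2:119325784-119335962), the ligand of endothelial tip and arterial cells, was measured at 23.8 CPM (21.2 to 26.6) in wild-type endothelial-like cells and 38.5 CPM (32.7 to 45.0) in those labelled knock-out. Mural-like cells had 32.5 CPM (23.7 to 43.4) and 48.8 CPM (32.9 to 69.6), overlapping the endothelial-like levels in both libraries, and microglia-like cells had 5.53 and 3.87 CPM. Jag1 (ENSMUSG00000027276, chr2:137081456-137116644, reverse strand), which signals from endothelium to mural cells and between smooth muscle cells, had 14.3 CPM (12.3 to 16.5) and 24.3 CPM (19.7 to 29.6) in endothelial-like cells. Its mural-like levels were 41.8 CPM (31.8 to 54.1) and 34.2 CPM (21.1 to 52.2). Wild-type Jag1 was higher in mural-like than in endothelial-like cells by 1.55 (1.10 to 1.98) on the log2 scale, while the difference in the library labelled knock-out was 0.49 (-0.26 to 1.18), which includes equality. In the wild-type library Jag1 was higher in smooth muscle-like cells, at 57.1 CPM (41.8 to 76.1) against 20.7 CPM (10.7 to 36.1) in the Kcnj8-led sub-cluster. The Jag1 values of the other library are not reported here. Between these mural sub-classes, 1 of 9 members was called higher in the wild type and 2 of 9 in the library labelled knock-out. The share of all genes called higher was 4.48% and 6.20%. Jag2 (ENSMUSG00000002799, chr12:112907819-112929776, reverse strand), the other Jagged ligand, had 18.1 and 24.0 CPM in endothelial-like, 23.8 and 29.3 CPM in mural-like and 4.52 and 3.38 CPM in microglia-like cells.

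Of the targets, Hes1 (ENSMUSG00000022528, chr16:30064384-30067796), a repressor that many signals besides Notch also induce, was detected in all 3 classes. It stood at 397 CPM (386 to 408) and 528 CPM (506 to 551) in endothelial-like cells, 480.5 CPM (445 to 518) and 800.1 CPM (731 to 874) in mural-like cells, and 168 CPM (162 to 175) and 259.9 CPM (247 to 273) in microglia-like cells. The order was mural-like, endothelial-like, microglia-like in both libraries, with no overlap of intervals. Hey1 (ENSMUSG00000040289, chr3:8663359-8667256, reverse strand), a repressor that acts within the arterial programme, had 42.4 CPM (38.9 to 46.1) and 45.6 CPM (39.3 to 52.6) in endothelial-like cells. Its mural-like levels of 51.2 CPM (40.0 to 64.6) and 65.0 CPM (46.5 to 88.6) overlapped them, and microglia-like cells had 10.1 and 4.83 CPM. Heyl (ENSMUSG00000032744, chr4:123233556-123249875), a target of Notch3 in smooth muscle, followed Notch3, with 39.7 CPM (29.9 to 51.6) and 52.0 CPM (35.6 to 73.5) in mural-like cells and at most 2.98 CPM in the other 2 classes. The mural-like over endothelial-like difference of Heyl was 3.73 (3.11 to 4.37) and 4.41 (3.35 to 5.60) on the log2 scale.

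Counted together, a gene was measured at 20 CPM in at least 1 of the groups compared and called when it differed at least 2-fold with an interval excluding equality. A gene under this minimum in 1 group was thus measured through the group where it was higher. In the mural-like over endothelial-like comparison, 3 of 9 members were called higher in the wild-type library (Notch3, Jag1 and Heyl), then 2 of 9 in the library labelled knock-out (Notch3 and Heyl). The share of all genes called higher was 4.90% and 7.12%. Of the members called, Notch3 and Heyl were under 20 CPM in endothelial-like cells of both libraries, and Jag1 in those of the wild type. In the endothelial-like over microglia-like comparison, all 5 measured members were called higher in wild type and all 7 in the library labelled knock-out, where 14.9% and 24.4% of all genes were called higher. All 9 members were called higher in mural-like than in microglia-like cells in both libraries, against 17.9% and 27.8% of all genes. Only Notch1 and Hes1 reached 20 CPM in microglia-like cells. For the other members measured in these comparisons, the minimum fixed the side of the ratio but not its size.

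Microglia-like cells carried a share of each member that can be set beside the share of endothelial marker RNA in the same cells. The 12 endothelial markers stood in microglia-like cells at 17.7% to 46.2% of their endothelial-like level in wild type and at 7.14% to 15.5% in the library labelled knock-out. Dll4 (23.3% and 10.0%), Jag1 (28.9% and 15.3%), Jag2 (24.9% and 14.1%) and Hey1 (23.9% and 10.6%) had values inside both ranges, though their intervals in the library labelled knock-out reached to or past the upper end, furthest for Jag1 (9.25% to 24.2%). The source of this RNA was not tested. Notch1 lay inside the wild-type range at 42.4% and above the other range at 30.8%. Notch4 was above both, at 47.0% and 37.7%, though its wild-type interval (39.9% to 55.1%) reached into the range. Hes1 was inside the wild-type range at 42.3% and above the other at 49.2%. Notch2, the receptor not among the members, showed the opposite order, with 12.5 and 22.2 CPM in microglia-like and 6.83 and 6.86 CPM in endothelial-like cells.

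**Figure D2:**
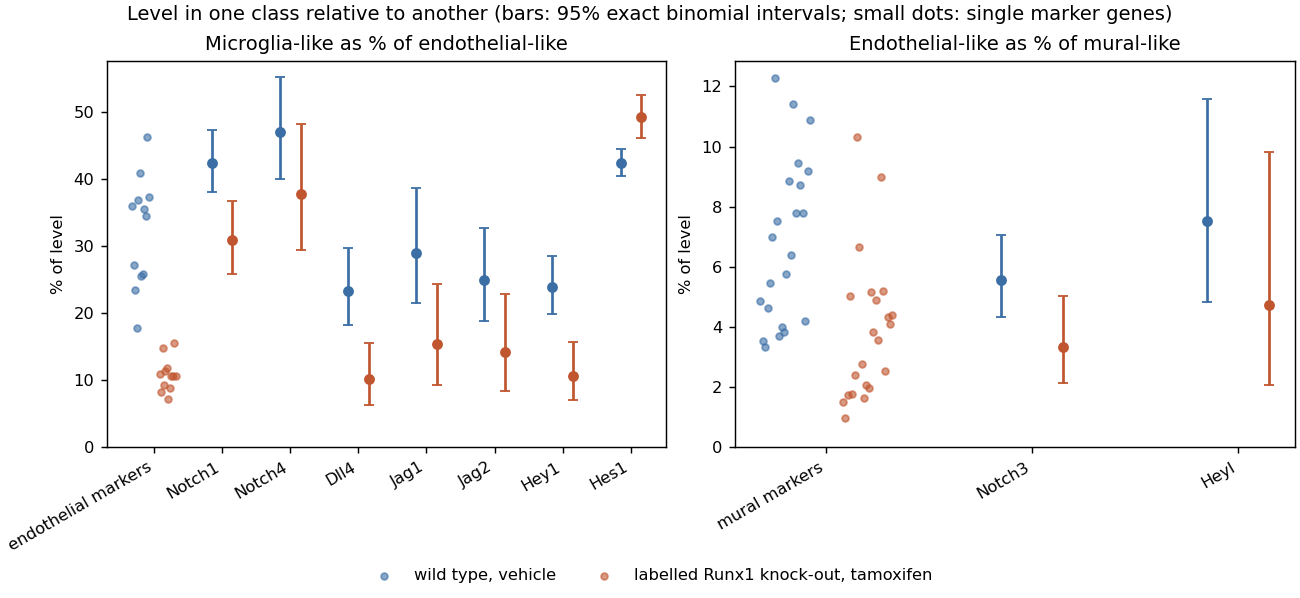
Left, the level in microglia-like cells as a percent of the endothelial-like level for 12 single endothelial markers (small dots) and 7 members (large points, 95% binomial intervals); right, the endothelial-like level as a percent of the mural-like level for 22 mural markers, Notch3 and Heyl. Dll4, Jag1, Jag2 and Hey1 lie among the endothelial markers in both libraries, while Hes1 of the library labelled knock-out lies above them.

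The mural-like levels were read in the same way. Endothelial markers in mural-like cells stood at 55.9% to 86.7% and 52.9% to 86.3% of their endothelial-like level, while Notch1 (135% and 140.2%), Dll4 (137% and 127%) and Hey1 (121% and 143%) stood above those ranges. Set against arterial-like cells, Hey1 in mural-like cells was 58.6% and 54.9% and Dll4 116% and 126%. The 12 arterial markers in mural-like cells ranged from 47.4% to 1480.2% (median 125%) of their arterial-like level in wild type and from 51.3% to 1005% (median 89.1%) in the library labelled knock-out. Both members lay inside that range, which is too wide to tell how much of their RNA was endothelial. The part of endothelial RNA in the mural-like levels was not tested. When mural-like cells were divided at the median of their endothelial marker share, Notch3 was 186 CPM in the lower and 117 CPM in the upper group of wild type, and 256 and 166 CPM in the library labelled knock-out. Jag1 followed the same order, with 60.3 and 28.6 CPM, then 50.6 and 20.7 CPM. Notch4 had the reverse order, with 31.0 and 58.3 CPM, then 25.3 and 50.3 CPM. Notch1 was 107 and 101 CPM, then 108 and 166 CPM, and Dll4 27.6 and 36.0 CPM, then 57.8 and 41.4 CPM, so their order differed between the libraries. Hey1 was 44.8 and 55.9 CPM, then 61.4 and 68.0 CPM. For Notch1, Dll4 and Hey1 the intervals of the lower and upper group overlapped in each library.

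Endothelial-like cells formed 3 sub-classes, arterial-like (393 and 201 cells), capillary-like (966 and 474) and venous-like (323 and 167), and of the members Hey1 set them apart most. Hey1 was 87.4 CPM (77.8 to 97.9) in arterial-like, 35.7 CPM (30.6 to 41.3) in capillary-like and 14.4 CPM (11.0 to 18.5) in venous-like cells of the wild-type library. In the library labelled knock-out the levels were 118 CPM (98.4 to 141), 27.4 CPM (19.9 to 36.8) and 13.8 CPM (8.46 to 21.4). The order was arterial-like, capillary-like, venous-like in both libraries, and the capillary-like and venous-like intervals met only in the library labelled knock-out. Against all other endothelial-like cells, arterial-like Hey1 was higher by 1.76 (1.51 to 2.01) and 2.50 (2.05 to 2.96) on the log2 scale. It was the 1 member called, of 6 measured in wild type and 7 in the library labelled knock-out, where 0.969% and 1.92% of all genes were called higher.

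The other members differed less along the vessel. Jag2 was higher in arterial-like than in other endothelial-like cells by 0.69 (0.29 to 1.09) and 0.72 (0.08 to 1.34), and Notch1 by 0.46 (0.26 to 0.65) and 0.51 (0.20 to 0.81). Hes1 followed the order arterial-like, capillary-like, venous-like in both libraries, with 468, 411 and 323 CPM in the wild type and 575, 564 and 456 CPM in the library labelled knock-out, where arterial-like and capillary-like levels did not differ beyond counting error. Dll4 was lowest in venous-like cells, at 17.7 and 28.4 CPM. Its arterial-like levels were 28.1 CPM (22.7 to 34.3) and 38.8 CPM (27.8 to 52.9), and its capillary-like levels 26.1 CPM (21.8 to 31.0) and 47.4 CPM (37.3 to 59.3), which overlapped. Notch4 was nearly even, from 29.5 to 36.6 CPM in the wild type and from 39.4 to 49.5 CPM in the library labelled knock-out.

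**Figure D3:**
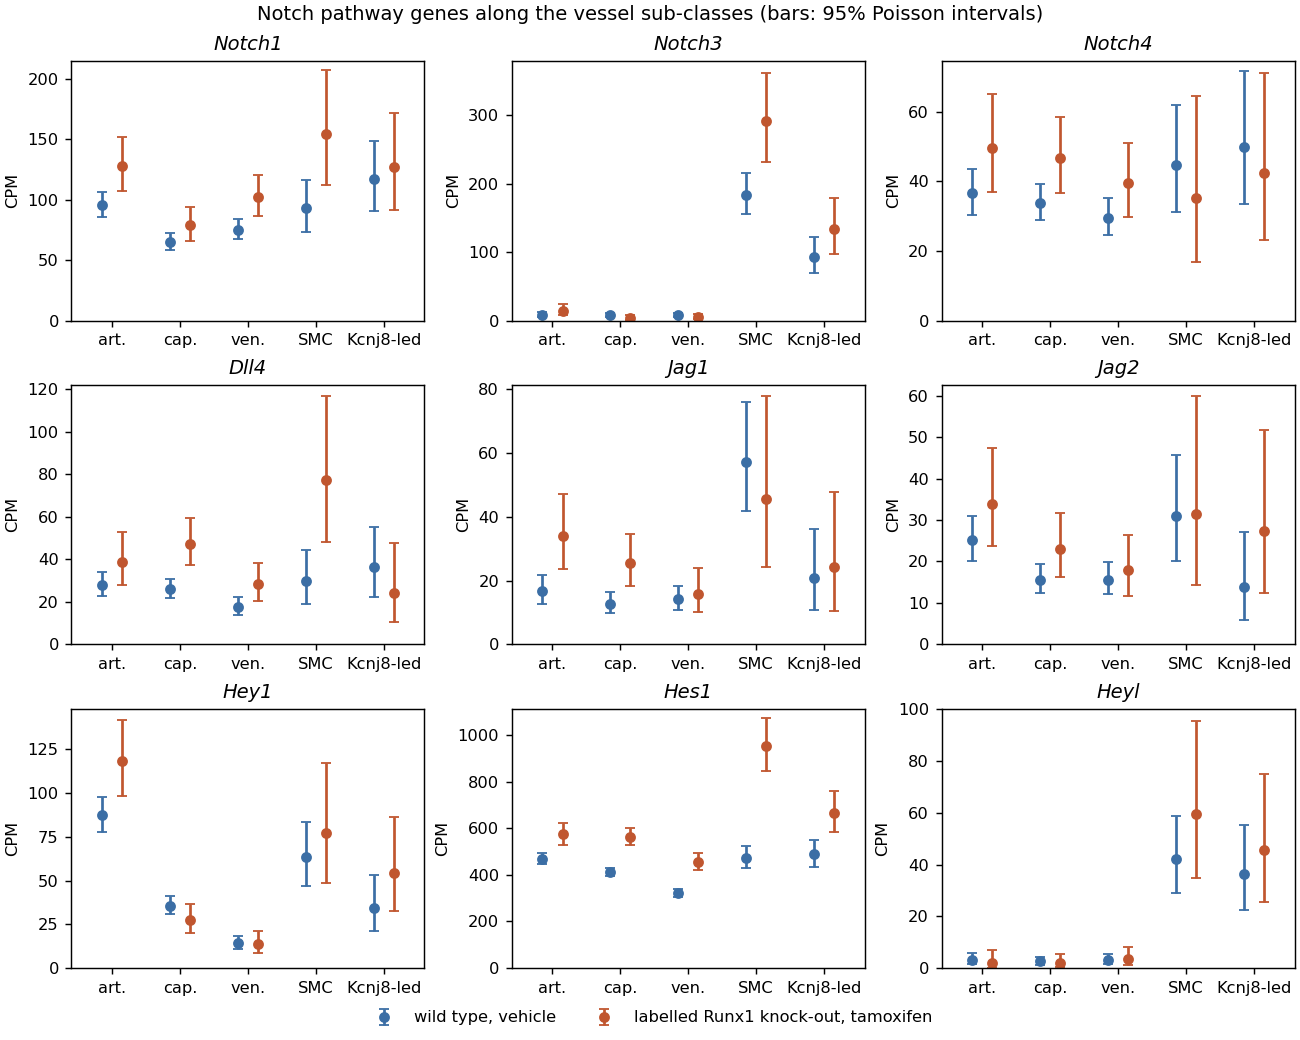
Level of each gene (CPM from 0) in arterial-like (art.), capillary-like (cap.), venous-like (ven.) and smooth muscle-like (SMC) cells and in the unnamed Kcnj8-led mural sub-cluster, with 1 point per library and 95% Poisson intervals. Hey1 steps down from arterial-like to venous-like cells, and Notch3 is highest in smooth muscle-like cells.

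Between the libraries, no member at 20 CPM or more passed 2-fold in the main classes, and the endothelial-like levels were on one side. In endothelial-like cells 0 of 7 measured members were called, against 3.90% of all genes, and all 7 were above 0. Their median log2 ratio of the library labelled knock-out over wild type was 0.41, beside 0.09 for all measured genes. The largest were Jag1 at 0.76 (0.40 to 1.13) and Dll4 at 0.69 (0.41 to 0.98). Jag1 and Jag2 reached 20 CPM only in the library labelled knock-out, so the minimum itself placed them above 0. Notch4 at 0.44, Hes1 at 0.41, Jag2 at 0.41 and Notch1 at 0.38 had intervals above 0, and Hey1 at 0.11 (-0.14 to 0.35) included 0. Over the same cells the microglia markers summed to 11297 CPM in the wild type and 4235 CPM in the library labelled knock-out, while the endothelial markers stood at 27047 and 28879 CPM. In the cells with fewer microglia markers, divided at the median, Dll4 was 25.1 and 36.9 CPM, Jag1 14.3 and 25.9 CPM, and Hes1 388 and 569.7 CPM. Hey1 went the other way in these cells, at 45.5 and 41.2 CPM. Their microglia markers still summed to 9865 CPM in the wild type and 3256 CPM in the library labelled knock-out. The division thus did not make the libraries alike in this RNA. The profile of all kept cells of a library, which includes the class itself, was also subtracted. The share taken was the level of microglia markers in the class over their level in all kept cells. For microglia-like cells the endothelial markers were used. All such marker RNA was thus treated as RNA from other cells. The share was 53.8% of UMIs in wild-type endothelial-like cells and 21.5% in those labelled knock-out, so far more was taken from the wild type. Dll4 was then 34.4 and 43.5 CPM, Jag1 19.1 and 27.1, Hes1 538 and 565, and Notch1 102 and 109. Hey1 was then lower in the library labelled knock-out, at 51.3 against 61.4 CPM.

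By sub-class, Jag1 passed 2-fold in arterial-like cells, from 16.7 to 34.0 CPM (log2 ratio 1.03 (0.38 to 1.66)), and in capillary-like cells, from 12.8 to 25.6 CPM (1.00 (0.40 to 1.59)). The share of all genes called was 5.24% and 4.61%. Jag1 was under 20 CPM in wild-type cells of both sub-classes, so it was measured through the library labelled knock-out. In venous-like cells Jag1 was 14.2 and 15.9 CPM, under the 20 CPM minimum, and 0 of 4 measured members were called, against 4.54% of all genes. Dll4 had log2 ratios of 0.47 (-0.10 to 1.01), 0.86 (0.43 to 1.28) and 0.68 (0.10 to 1.25) in arterial-like, capillary-like and venous-like cells.

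In mural-like cells 0 of 9 members were called, against 6.83% of all genes, with 7 of 9 above 0 and a median of 0.39 beside 0.04 for all genes. Hes1 at 0.74 (0.56 to 0.91), Notch3 at 0.50 (0.17 to 0.83) and Notch1 at 0.44 (0.04 to 0.83) had intervals above 0. Over these cells the erythrocyte markers were 4381 CPM in wild type and 28246 CPM in the other, and microglia markers 10829 and 4064 CPM, and their part in the ratios was not tested. The library profile was subtracted here at 51.6% of UMIs in the wild type and 20.6% in the library labelled knock-out. After this, 4 members turned below 0: Notch3 at -0.16, Heyl at -0.27, Jag2 at -0.15 and Hey1 at -0.05. This left Notch1, Dll4 and Hes1 above 0. No interval was computed for the subtracted ratios themselves, so their distance from 0 was not judged. In the smooth muscle-like sub-class, Dll4 (from 29.8 to 77.2 CPM, 1.37 (0.47 to 2.27)) and Hes1 (from 474 to 954 CPM, 1.01 (0.78 to 1.24)) were called, where 7.73% of all genes were. In the Kcnj8-led sub-cluster 0 of 9 members were called, against 7.06% of all genes. In microglia-like cells only Notch1 and Hes1 were measured and neither was called, against 6.89% of all genes. Hes1 stood at 0.63 (0.54 to 0.72) and Notch1 at -0.08 (-0.33 to 0.16). Hey1 was under the minimum there, at 10.1 and 4.83 CPM, and its ratio of -1.06 (-1.68 to -0.49) was past 2-fold. Endothelial markers in these cells summed to 9079.9 CPM in the wild type and 2999 CPM in the library labelled knock-out. The library profile was subtracted here at 52.8% of UMIs in the wild type and 21.7% in the library labelled knock-out. After this unequal subtraction, Hes1 in microglia-like cells was 47.3 and 223 CPM, and Notch1 7.08 and 21.4 CPM. The part of the subtraction in these gaps was not tested.

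**Figure D4:**
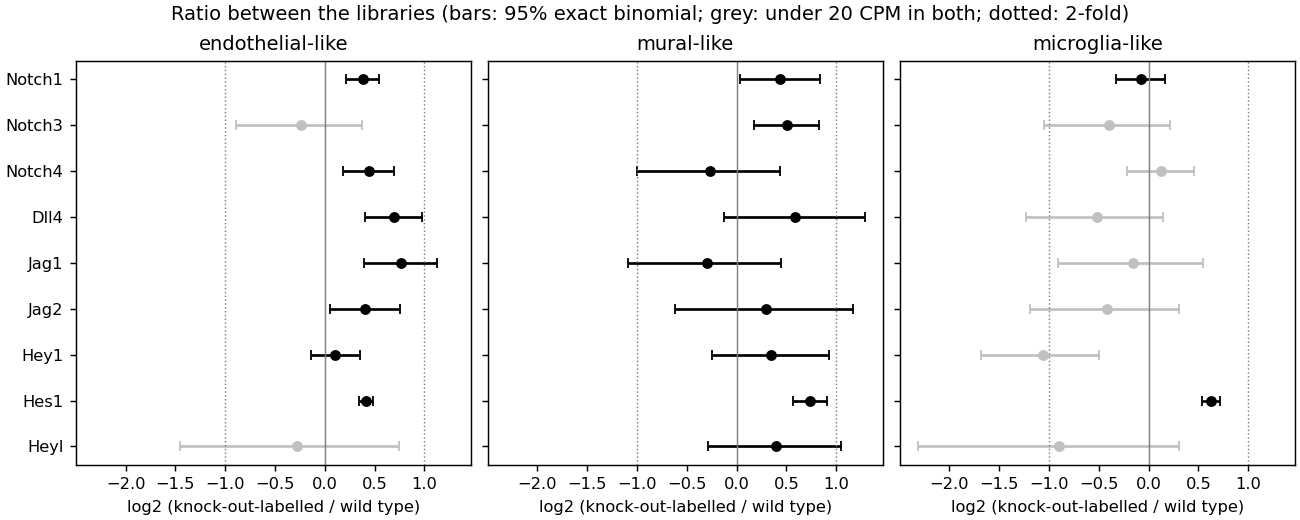
Log2 ratio of the library labelled knock-out over the wild-type library (horizontal axis) for the 9 genes in each class, with exact binomial 95% intervals; grey points are genes under 20 CPM in both libraries and dotted lines mark 2-fold. All 7 measured genes lie above 0 in endothelial-like cells, and no black point lies past a dotted line. Among these, Jag1 and Jag2 reached 20 CPM only in the library labelled knock-out.

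The other 58 genes of the Notch lists, chosen by role, gave 1 call in each class between the libraries. In endothelial-like cells 34 of them were measured and 1 was called, against 3.90% of all genes: Ephb4, an ephrin receptor of veins (log2 1.18 (0.90 to 1.46)), and their median was 0.16. In mural-like cells 1 of 36 was called, again Ephb4 (1.61 (0.54 to 2.72)), against 6.83% of all genes. In microglia-like cells 1 of 30 was called, against 6.89%: Sox17, an arterial transcription factor (-1.10 (-1.32 to -0.88)). The summed endothelial markers in the same microglia-like cells had a log2 ratio of -1.60, and their part in the Sox17 value was not tested. Ephb4, and Efnb2 below, were named after their values were seen. In endothelial-like and mural-like cells Ephb4 was under 20 CPM in the wild type and was measured through the library labelled knock-out. Between classes, 5 of the 34 measured in the wild-type library were called higher in mural-like than endothelial-like cells, and 5 of 35 in the library labelled knock-out: Hey2, Nrarp, Dtx3, Gja4 and Nr2f2 in both, where 4.90% and 7.12% of all genes were. Hey2, a Hes-related repressor present in smooth muscle, had 20.9 and 26.0 CPM in mural-like and 0.942 and 0.736 CPM in endothelial-like cells. Nrarp, a feedback inhibitor of Notch, had 70.0 and 87.8 CPM against 24.2 and 30.2, a difference of 1.53 (1.19 to 1.87) and 1.54 (1.05 to 2.01) on the log2 scale. The connexin Gja4 had 141 and 197 CPM against 19.5 and 18.9, and the venous transcription factor Nr2f2 113 and 151 CPM against 38.8 and 56.9. Hey2 and Gja4 were under 20 CPM in endothelial-like cells of both libraries and were measured through mural-like cells. Arterial-like over other endothelial-like cells, 3 of 36 measured in wild type and 3 of 35 in the library labelled knock-out were called higher (Efnb2, Unc5b and Gja4 in both) and 1 was called lower (Nr2f2 in both). Of all genes, 0.969% and 1.92% were called higher and 0.591% and 1.63% lower. Efnb2, the ephrin ligand of arteries, had 34.2 against 7.94 CPM, then 46.6 against 10.2 CPM. It was under 20 CPM in the other endothelial-like cells of both libraries, so the minimum fixed the side of this step but not its size.

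Of the nuclear genes, Rbpj had 25.7 and 25.3 CPM in endothelial-like, 31.7 and 34.2 CPM in mural-like and 34.0 and 34.5 CPM in microglia-like cells. The coactivator Maml3 was called lower in endothelial-like than microglia-like cells in both libraries (-1.20 and -1.34), as was Dtx4, a ubiquitin ligase of the Deltex family (-1.23 and -2.76), in comparisons where 9.93% and 14.8% of all genes were called lower. Among arteriovenous genes, the endothelial-like over microglia-like difference of Sox17 was 2.12 and 3.55, and that of Unc5b, a guidance receptor of tip cells, 1.86 and 2.94. Unc5b was under the minimum in microglia-like cells, at 10.4 and 6.77 CPM, and was measured through endothelial-like cells.

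Over the 12 sub-class and library profiles, which share libraries and depth, Notch3 and Heyl had a Pearson correlation of 0.987 on log2(CPM + 20), given as a description. The genes most like Notch3 were Atp1b2 (r = 0.995) and Zic4 (r = 0.992), and those most like Heyl Lhfp (r = 0.999) and Gucy1b3 (r = 0.997). For Hey1 they were Cdkn1c (r = 0.981) and Alpl (r = 0.965), and for Dll4 Ddx50 (r = 0.974) and Mrps18c (r = 0.962).

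Each cell was then thinned to 1500 UMIs, below the shallowest cell, so that depth was the same in both libraries. The share of endothelial-like cells with at least 1 ligand UMI was 7.97% (6.72% to 9.37%) and 13.3% (11.1% to 15.8%), and that with both a receptor and a ligand 1.07% (0.635% to 1.69%) and 3.56% (2.42% to 5.05%). Unthinned, these shares were 32.2% and 31.9%, then 18.8% and 17.6%. In mural-like cells a receptor UMI was held by 32.2% (24.6% to 40.5%) and 44.1% (34.3% to 54.3%), and unthinned by 85.3% and 84.3%. In microglia-like cells the receptor shares were 7.59% (6.51% to 8.78%) and 7.23% (5.91% to 8.74%), and the ligand shares 2.12% (1.55% to 2.81%) and 1.48% (0.904% to 2.27%). Unthinned, they were 30.3% and 19.6%, then 9.52% and 4.80%. Ligand shares of endothelial-like cells and receptor shares of mural-like cells were thus above those of microglia-like cells at the same depth. Median depths before thinning were 6131 and 3605.5 UMIs in endothelial-like cells, 9120 and 5073.5 in mural-like cells and 5541 and 3478 in microglia-like cells.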

How the data were processed

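The authors deposited raw UMI counts per gene and barcode, 1 matrix per library, made with 10x Chromium 3′ chemistry as the labels' protocols state. STAR, Cell Ranger 2.0.1 and Seurat 2.1.0 were among the tools, and mm10 or GRCm38.p5 the genome builds, per the submitters' processing notes, which give them no role. The selection of barcodes by the authors is not stated there.

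The members, gene lists and alternatives were chosen with earlier results of these data known. A barcode needed 300 detected genes and no more than 10% mitochondrial UMIs, and 0 and 8 barcodes were removed. Both libraries were clustered together (scikit-learn 1.9.0, leidenalg 0.10.2) on 2000 variable genes, 30 principal components and 15 neighbours at resolution 0.5, without the 67 Notch-list genes, Runx1 and sex-linked genes. A cluster took the name of the type with at least 2 markers among its top 10 genes by fold and at least 3 counted markers, or otherwise of the type with at least 50% of its markers counted and no rival at 60% of that share. Endothelial and mural clusters were then divided again with genes scaled within each library. Leaving out sub-clusters led by microglia genes was decided after the data were seen. Dividing cells by their marker share was also added after the data were seen. Doublets were removed only in an alternative, by Scrublet score (scanpy 1.11.5), at 168 and 54 cells.

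Within each library the UMI counts of a class were added up and scaled to CPM, with exact Poisson intervals. Log2 ratios carry exact conditional binomial intervals and shares exact Clopper-Pearson intervals, at 95%, with scipy 1.17.1. Named genes were the 9 members, up to 4 others per list at 20 CPM or more that differed 2-fold between libraries or, in both libraries, between classes, and Notch2, Rbpj and Hey2. Some values of the lists are not reported here. The genes most like a member were the 2 with the highest Pearson correlation among genes at 50 CPM in at least 1 profile. On simulated data for endothelial-like cells (5895 genes, 200 changed), the interval covered the simulated ratio of 95.7% of unchanged genes, 98% of genes set to 4 times and 98% of genes set to 2 times the level, of which 100% and 42% were called. In simulated mural-like cells 0.951% of unchanged genes were called. The simulated counts were Poisson draws from a pooled profile, as the intervals assume. They say nothing of spread between cells, libraries or animals. Gene positions are from GENCODE on GRCm38, in which all 9 members were found by identifier. The promoter table of RefSeq is on GRCm38.p6.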

Additional observations from a re-analysis of the deposited data

How the results depend on the processing

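No paired analysis was possible because each group had 1 library. The 61 member ratios were recomputed under 13 other settings, 793 values in all, and 2 of these settings were added after the data were seen (mixed sub-clusters of microglia genes kept, and mural-like limited to smooth muscle-like cells). Other minimum levels bear on the counts of called members. Of these, 715 stayed inside the interval of the reported value and 78 moved outside it, and 768 kept the sign and 25 did not. Leaving the Notch genes in the clustering, removing high Scrublet scores, stricter cell filters and totals without mitochondrial, ribosomal protein and hemoglobin genes changed no count of called members by more than 1.5 times.

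Changes in the counts of called members that were small in proportion are not listed here. Over the settings, the lowest log2 ratio of Hes1, endothelial-like over microglia-like in the library labelled knock-out, was 0.64. That of Jag1, mural-like over endothelial-like in the wild type, was 0.91. Both are under 2-fold, so these members were not called in every setting. The changes larger in proportion were these. Between libraries in endothelial-like cells, 0 became 1 with the mean of CPM per cell (Jag1) and 2 with cells thinned to 1500 UMIs (Dll4 and Jag1). In mural-like cells, 0 became 1 when thinned (Notch1), 2 with each library clustered on its own (Jag2 and Hey1), 1 in cells with less RNA of other classes (Hes1) and 2 in smooth muscle-like cells alone (Dll4 and Hes1). In microglia-like cells, 0 became 2 with the whole-library profile subtracted (Notch1 and Hes1) and 1 at a minimum of 5 CPM (Hey1). The share subtracted there was 52.8% of UMIs in the wild type and 21.7% in the library labelled knock-out. For subtracted profiles and for the mean of CPM per cell, the call used the interval of the summed counts, moved with the ratio. Endothelial-like over microglia-like counts fell from 5 to 2 in the wild type with the median gene set to equality (Dll4 and Hey1) and to 2 at a minimum of 50 CPM, where fewer members were measured, and from 7 to 2 in the library labelled knock-out at 50 CPM. The mural-like over endothelial-like count in the wild type fell from 3 to 1 at 50 CPM (Notch3). In the library labelled knock-out the arterial-like count rose from 1 to 2 when thinned (Jag2 and Hey1), to 3 at resolution 1 (Notch3, Jag2 and Hey1) and to 2 at 5 CPM (Notch3 and Hey1). The cause of the changes other than a changed minimum was not tested. Low counts limit some values: Jag2 in mural-like cells rested on 33 and 18 UMIs, and Heyl in endothelial-like cells on 38 and 10.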
